A study of Mus musculus with 6 samples.

Results

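Olig1, Olig2 and 7 further genes used as markers of neural progenitors (Sox1, Pax6, Nes, Sox10, Nkx2-2, Hes5 and Fabp7) were followed through RNA-Seq libraries of mouse embryonic stem cells (mESCs). Olig1 and Olig2 were chosen by their log2 fold changes in these same libraries, whereas the other 7 genes were listed for their neural roles, to see whether the Olig genes changed with a wider neural program. All 9 genes were found by their Ensembl identifiers among the 43309 genes counted. Of the 9, 7 reached 10 counts in some library and were among the 16823 genes tested, and 2 (Hes5 and Fabp7) stayed under that minimum.

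The 6 libraries were made with the Illumina TruSeq Stranded mRNA kit from 2 μg of total RNA each, and they fall into 2 groups of 3. Controls came from lines with the genotype 2lox/+, described as Zbtb24 wild-type, which carry a Zbtb24 allele with loxP sites beside an intact one. The other lines were labelled Zbtb24 knockout (1lox/1lox), meaning that both alleles are in the form left by recombination at the loxP sites. All lines were of the J1 (129SV) background and grew on gelatin in serum medium with no feeder layer. Each line was described as a separate clone, and gave 1 library. Which agent caused the recombination was not given in the sources used here.

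The libraries held between 25042261 and 28838924 counts. Libraries of a group differed little, with a common biological coefficient of variation of 2.00%. Mean chi-square ratios between libraries of a group ran from 1.14 to 2.24, where counting noise alone gives 1. The p-values set each difference against this small spread. Whether the spread holds all the variation between separate clones was not tested. Zbtb24, a zinc finger gene on chromosome 10, had 510, 512 and 489 counts in control libraries 1, 2 and 3, and 888, 925 and 1039 counts in those labelled knockout. Its level was thus 1.99-fold higher in the second group (log2 fold change 0.99, SE 0.050, adjusted p = 4.32e-23 by the quasi-likelihood test of edgeR, adjusted after Benjamini and Hochberg), which goes against its label. These counts cover the gene as a whole and do not show the deleted part, and that group is called "labelled knockout" throughout. Whether the labels of the groups were exchanged, which would turn every direction given here, cannot be told from the Zbtb24 counts. Other genes were not examined for this question. All 14 ES cell markers were detected in every library, with summed levels of 6335 to 6426 cpm (counts scaled to one common library size) in the controls and 7790 to 7854 cpm in the libraries labelled knockout.

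Olig1 and Olig2 are basic helix-loop-helix (bHLH) transcription factors that lie side by side in the genome. In the ventral spinal cord, Olig2 is induced by Hedgehog signalling and specifies first motor neuron progenitors and then oligodendrocyte precursors, in which Olig1 and Sox10 act as well. Sox1 and Pax6 are transcription factors of the early neural plate, Nes encodes the intermediate filament nestin of dividing neural progenitors, Fabp7 a fatty acid binding protein of radial glia, Hes5 a target of Notch signalling, and Nkx2-2 a homeodomain factor of the most ventral progenitors.

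Stretches of the promoters of Olig2 and Nes are given because these genes moved farthest in opposite directions among the members with a promoter sequence. Both run up to the base before the gene annotated in GENCODE, on the plus strand of mm10, and come from RefSeq's promoter set on GRCm38.p6, with each CpG in capitals.
Olig2, chr16:91225300-91225456: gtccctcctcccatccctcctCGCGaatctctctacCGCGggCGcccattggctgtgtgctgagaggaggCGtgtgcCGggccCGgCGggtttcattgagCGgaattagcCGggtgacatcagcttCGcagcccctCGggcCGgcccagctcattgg
Nes, chr3:87970843-87971077: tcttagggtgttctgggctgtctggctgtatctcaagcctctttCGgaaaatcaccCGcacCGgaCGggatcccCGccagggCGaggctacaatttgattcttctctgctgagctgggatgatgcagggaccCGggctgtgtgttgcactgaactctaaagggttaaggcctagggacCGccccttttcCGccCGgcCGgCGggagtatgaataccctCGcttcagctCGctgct

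The Olig2 stretch held 14 CpGs in 157 bases and the Nes stretch 14 in 235 bases. In the full 250 bases before the RefSeq start, Olig2 had 22 CpGs, a number that 86.7% of the 32851 promoters of the set did not exceed. Sox1 had 29 and Hes5 32 in that window, whereas Nes had 15, both Pax6 promoters 15, Nkx2-2 8 and Fabp7 4, against a median of 6 over the set. Of the 9 genes, 7 had a promoter in the set. The letters AGGACCT, the core of the sequence bound by ZBTB24, were in 4.05% of all promoters on either strand, and CAGCTG, an E-box of the kind bound by bHLH factors, in 13%. Neither was found in the 250 bases before the start of any of these 7 genes.

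Olig2 (ENSMUSG00000039830, protein coding) is encoded on the plus strand of chromosome 16, at 91225457 to 91228677 in mm10. In control libraries 1, 2 and 3 it had 1, 2 and 2 counts, while libraries 1, 2 and 3 labelled knockout held 269, 278 and 313 counts. The groups were far apart, and the controls stayed at the floor of 3 counts per library that a value near 0 allows. Scaled to library size, the level was 0.0604 ± 0.0215 cpm in controls against 10.9 ± 0.523 cpm in the other group (SD, n = 3 in each group). Against that floor, Olig2 was at least 100.5-fold higher in the libraries labelled knockout. This is a description and no test, because the gene was chosen for this difference. In bulk RNA, fewer cells of a type and less RNA per cell cannot be told apart, for this gene and for those that follow.

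Olig1 (ENSMUSG00000046160, protein coding) follows on the same strand from 91269772 to 91271933, so that its start lies 44.3 kb beyond the start of Olig2 and 41.1 kb beyond its end. It had 6, 9 and 15 counts in control libraries 1, 2 and 3, and 499, 435 and 497 counts in libraries 1, 2 and 3 labelled knockout. As with Olig2, the groups did not come near each other. The mean level was 0.362 ± 0.169 cpm in the controls and 18.1 ± 0.850 cpm in the libraries labelled knockout (SD, n = 3 in each group). This amounts to a 49.6-fold difference (log2 fold change 5.63, SE 0.141), again given without a test. Every SE given in the text was worked back from the F statistic. That of Olig1 understates the error, as the controls had few counts, and the same can hold for other genes with few counts in a group.

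Per kilobase of the longest transcript, both genes went from nearly no signal to the middle of the range. Olig1 had 0.168 cpm per kb in the controls and 8.38 in the libraries labelled knockout, a level above that of 61.8% of the genes tested. Olig2 had 0.0239 cpm per kb in the controls and 4.31 in the libraries labelled knockout, above 49.9% of the genes tested. In the controls, by contrast, the level of Olig1 exceeded that of 8.07% and Olig2 that of 0.275% of the genes tested. Within the libraries labelled knockout, Olig1 was the more abundant of the pair per length, with an Olig1 to Olig2 ratio of 2.17, 1.83 and 1.86 in libraries 1, 2 and 3 (mean 1.95 ± 0.189, SD, n = 3).

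**Figure D1:**
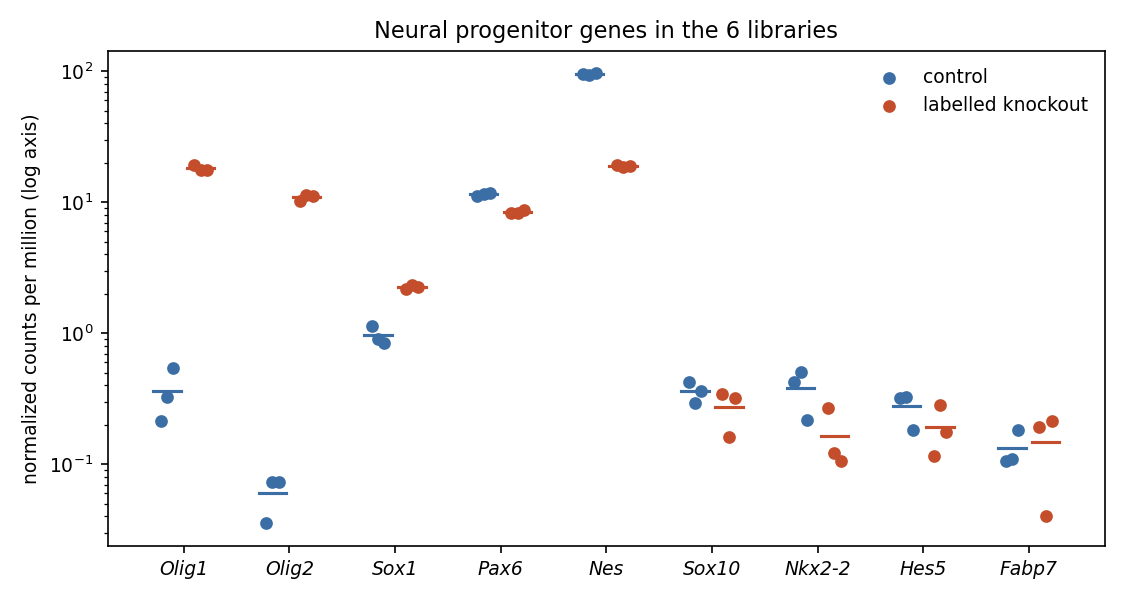
Level of each of the 9 genes in every library, as cpm on a log axis, with control libraries and libraries labelled knockout in separate colours and a bar at each group mean. The groups of Olig1, Olig2, Sox1, Pax6 and Nes lie apart, those of Sox10, Nkx2-2, Hes5 and Fabp7 overlap, and Olig2 moves from 0.0604 to 10.9 cpm. The share of all genes with groups that lie apart was not counted.

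The other Olig gene, Olig3, is encoded on chromosome 10 and marks dorsal rather than ventral progenitors. It had 13, 23 and 10 counts in the controls and 6, 5 and 8 in the libraries labelled knockout, which placed every library labelled knockout below every control. The log2 fold change was -1.19 (SE 0.410, adjusted p = 0.00928 by edgeR), opposite in sign to those of Olig1 and Olig2. Without control library 2 it was -0.77 and no longer passed (adjusted p = 0.148 by edgeR).

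Genes around the Olig pair were examined next. The 500 kb on each side of the Olig2 start held 18 other protein-coding genes, of which 15 were tested. Of these, 6 rose, 2 fell and 7 did not pass the test, where 34.4% of all genes tested rose and 35.2% fell at an adjusted p of at most 0.05. Among the 13 that averaged 20 counts or more, the log2 fold changes ranged from -0.24 for Ifnar1 to 0.70 for Ifnar2, both interferon receptor genes, against 5.63 for Olig1. Ifnar2 had 96, 95 and 101 counts in the controls and 137, 138 and 176 in the libraries labelled knockout. Donson, among the 6 that rose, no longer passed with DESeq2 (adjusted p = 0.0588) or total counts (0.0748 by edgeR), or without control library 2 or 3 (0.118 and 0.0904 by edgeR). Of the 7 that did not pass, Mis18a, Urb1, Dnajc28 and Gart each passed under at least 1 alternative (lowest adjusted p of 0.00627, 0.0244, 0.0188 and 0.0158 by edgeR), with log2 fold changes from -0.14 to 0.44. The largest decrease was that of Eva1c, at 6, 3 and 15 counts in the controls and 3, 2 and 2 counts in the libraries labelled knockout, and its call (adjusted p = 0.0215 by edgeR) did not hold with DESeq2 (0.0705) or without library 2 or 3 labelled knockout (0.0520 and 0.0706 by edgeR).

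The nearest protein-coding genes on each side of the pair showed little of the change seen in it. Upstream, 4932438H23Rik had counts in 1 library labelled knockout (2 counts) and none in the others, and Paxbp1, the next one out, had a log2 fold change of 0.40 (SE 0.0308). Downstream, the nearest was Ifnar2, whose start lies 147 kb past that of Olig2. Gm15966, a long non-coding RNA gene on the opposite strand that ends within the last stretch of Olig1, had 1 count in library 2 labelled knockout and 0 in every other library. Gm37016, annotated between Olig2 and Olig1, had 0 counts in all 6 libraries. Counting used the strand, so reads of Olig1 and of Gm15966 were kept apart.

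**Figure D2:**
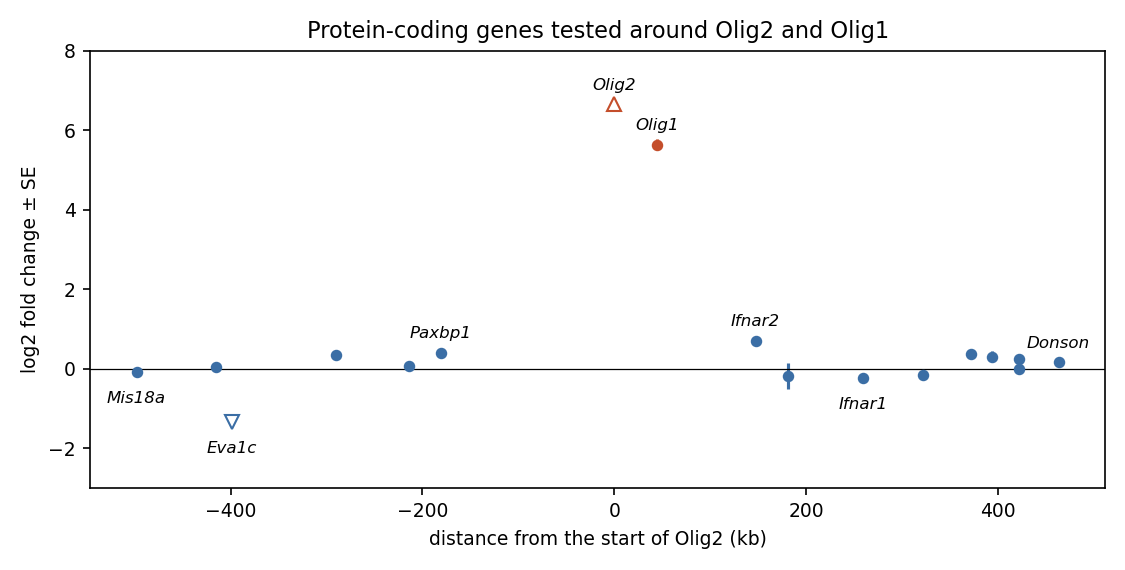
Log2 fold change (labelled knockout against control) with its SE for the protein-coding genes tested within 500 kb of the start of Olig2, by distance in kb from that start. Olig1 and Olig2, in red, stand at 5.63 and at a lower bound (open triangle), while the others that averaged 20 counts or more lie between -0.24 and 0.70.

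Olig2 and Olig1 were then placed among all genes tested by their levels, as the Euclidean distance of log2(cpm + 1) over the 6 libraries. The values were neither centred nor scaled, so genes that change alike but differ in level lie apart. Apoa2, an apolipoprotein gene, was nearest to Olig2 at a distance of 0.467, and Olig1 took rank 4 at 1.37. Nearest to Olig1 was Gm10499, annotated as a transcribed pseudogene, at 0.450, followed by Apoa2 at 0.936 and Nlrx1, a mitochondrial protein of the NOD-like receptor family, at 0.945. Hal, encoding histidine ammonia-lyase, took rank 4 at 1.32, and Olig2 rank 5 at 1.37. None of the other 7 members was among the 5 nearest to either gene. These distances describe 6 libraries in 2 groups, so a gene low in the controls that reaches a similar level in the other group comes close.

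Sox1 (ENSMUSG00000096014, chromosome 8, 12395295 to 12400126) was the third member with a higher level in the libraries labelled knockout. It had 32, 25 and 23 counts in control libraries 1, 2 and 3, and 57, 58 and 64 counts in libraries 1, 2 and 3 labelled knockout. The groups did not overlap, but the level stayed low in both. It rose 2.35-fold, from 0.962 ± 0.156 to 2.27 ± 0.0867 cpm (SD, n = 3 in each group; log2 fold change 1.23, SE 0.185, adjusted p = 9.01e-08 by edgeR over all genes tested). Per kb, the Sox1 level of 0.469 cpm in the libraries labelled knockout was far under the 4.31 of Olig2 and the 8.38 of Olig1.

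Pax6 (ENSMUSG00000027168, chromosome 2, 105668900 to 105697364) moved the other way by a small amount. Counts were 312, 320 and 323 in the controls and 218, 205 and 245 in the libraries labelled knockout, and the groups were again separate. Its level fell from 11.5 ± 0.362 to 8.45 ± 0.197 cpm (SD, n = 3 in each group), with a log2 fold change of -0.44 (SE 0.0750, adjusted p = 1.07e-06 by edgeR).

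Nes (ENSMUSG00000004891, chromosome 3, 87971078 to 87980451) was the most abundant member in the controls and fell the most. It had 2700, 2550 and 2649 counts in control libraries 1, 2 and 3, against 499, 461 and 537 counts in libraries 1, 2 and 3 labelled knockout. Every library labelled knockout was well below every control. The level fell 5.01-fold, from 95.1 ± 1.99 to 19.0 ± 0.200 cpm (SD, n = 3 in each group; log2 fold change -2.33, SE 0.0399, adjusted p = 2.12e-42 by edgeR). Per kb of transcript, Nes went from 15.5 to 3.09 cpm, so that it stood above Olig1 and Olig2 in the controls and below both in the libraries labelled knockout. The summed level of the 9 genes, most of which is Nes in the controls, fell with it, from 107 to 111 cpm in the controls to 59.0 to 60.0 cpm in the libraries labelled knockout.

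The 4 remaining members were near the limit of detection in both groups. Nkx2-2 (chromosome 2) had 12, 14 and 6 counts in the controls and 7, 3 and 3 counts in the libraries labelled knockout, so the groups overlapped. Its log2 fold change of -1.20 (SE 0.498) passed narrowly (adjusted p = 0.0294 by edgeR). The call was lost with DESeq2 (adjusted p = 0.0968), without control library 1 or 2 (0.0808 and 0.142 by edgeR), and without library 2 or 3 labelled knockout (0.0921 and 0.13 by edgeR).

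Sox10 (chromosome 15), the factor that oligodendrocyte precursors express with the Olig pair, had 12, 8 and 10 counts in the controls and 9, 4 and 9 in the libraries labelled knockout. Its groups overlapped, and the log2 fold change of -0.37 (SE 0.430) did not pass the test (adjusted p = 0.453 by edgeR). Hes5 (chromosome 4) had 9, 9 and 5 counts in the controls and 3, 7 and 5 in the libraries labelled knockout. Fabp7 (chromosome 10) had 3, 3 and 5 counts in the controls and 5, 1 and 6 in the libraries labelled knockout. Both overlapped between groups and were too low to be tested, so neither showed a rise of the kind seen in Olig2, and a small change or a fall was not detectable at this depth.

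Of the 7 members tested, 3 were higher (Olig1, Olig2 and Sox1), 3 were lower (Pax6, Nes and Nkx2-2) and 1 did not pass. These counts hold the pair that was chosen for its values, and 34.4% of all genes tested passed upward and 35.2% downward, so nothing is read from them. A change of at least 2-fold was less common, at 5.21% of the genes tested upward and 11.8% downward, and 3 members were past it upward and 2 downward. The share of all genes whose groups do not overlap was not counted. Nothing is therefore read from the 5 members whose groups lay apart, or from the same trait in genes named below.

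The genes within 5 Mb of each member, taken where they averaged 10 counts or more, served as a local reference. Around Olig2 and Olig1 the median log2 fold change was 0.07 over 59 and 60 genes, and Olig2 was the single gene above Olig1 there. Around Sox1, the 40 neighbours had a median of -0.60, and none was as high as Sox1. Chromosome 8 as a whole had a median of -0.20. Sox1 therefore lay farther above its neighbours than above 0.

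Around Nes, the median over 132 genes was -0.05, and 1 of them fell further than Nes. Around Pax6 it was also -0.05, over 48 genes, and 14 of these were lower than Pax6, so its small decrease lay within the spread of its neighbourhood. Nkx2-2 and Sox10 had neighbours with medians of 0.04 and -0.00, over 64 and 193 genes. How copy number or other features of a chromosome bear on these values was not tested.

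**Figure D3:**
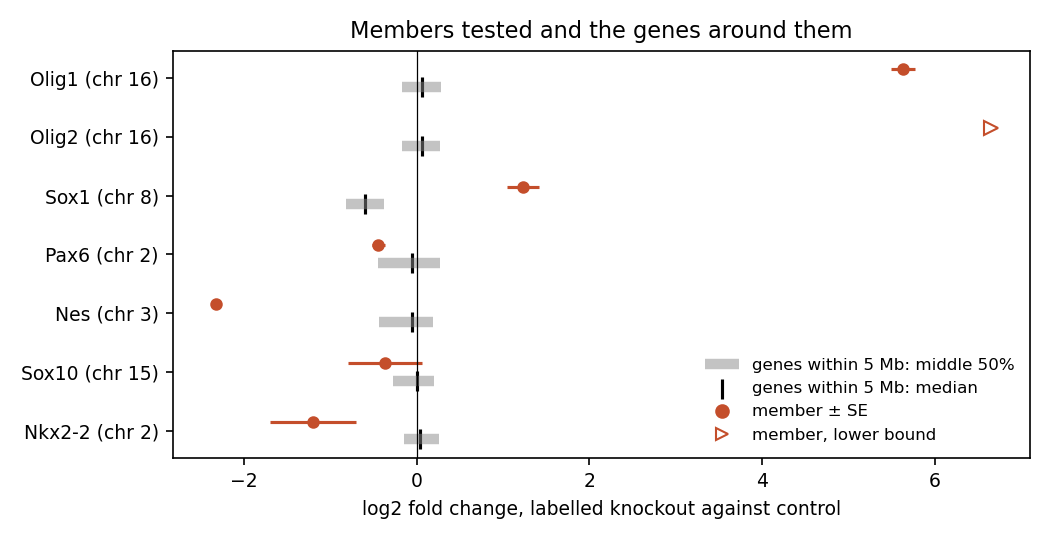
Log2 fold change (labelled knockout against control) of the 7 members tested, with its SE, above the median (black line) and middle 50% (grey bar) of the genes within 5 Mb. Olig1, Olig2 (open triangle, a lower bound) and Sox1 lie to the right of their neighbours, Nes and Nkx2-2 to the left, and Pax6 and Sox10 within or close to the grey bars.

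To place the members in a wider neural program, 10 lists of neural genes were counted, which hold 206 genes beside the 9 members. Of the 169 tested, 48 rose (28.4%, against 34.4% of all genes), 79 fell (46.7%, against 35.2%) and 42 did not pass. At least 2-fold changes were seen upward in 14 (8.28%, against 5.21%) and downward in 39 (23.1%, against 11.8%). The median log2 fold change was -0.28, compared with -0.00 over all genes tested. Over the 135 that averaged 20 counts or more it was -0.08, compared with 0.01 over the 14127 genes tested at that level. The 2-fold shares were not matched for level. One of the lists is of repressors of neuronal genes, of which 7 of 13 rose and 4 fell, and these are in the counts. The lists were made with the results of these libraries known. For each list below, shares of its genes tested are given, to be set beside the 34.4% and 35.2% of all genes. Olig1 and Olig2, chosen for their values, are among the genes that rose in each list that holds them.

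In the list of the neuroepithelium and its regions, to which Sox1 and Pax6 belong, 8 of 29 genes tested rose and 14 fell (27.6% and 48.3%). Sox1 shares its class with Sox2, which also rose (log2 fold change 0.43), and Sox3, which fell (-1.58). Sox2 is a stem cell factor too, at 359 ± 9.46 cpm in the controls, whereas Sox3 had 52, 80 and 67 counts in the controls and 17, 16 and 30 in the libraries labelled knockout. Pou3f1, a factor of the epiblast and early neural plate, fell with Nes and Pax6, from 892, 888 and 905 counts to 170, 193 and 178 (-2.24, SE 0.0643, adjusted p = 5.13e-33 by edgeR). Otx2, of the forebrain and midbrain, fell by 0.91 on the log2 scale. Gbx2, of the same list, went the other way, from 531, 520 and 512 counts to 960, 898 and 1121 (1.00, SE 0.0487, adjusted p = 9.45e-24 by edgeR). It is encoded on chromosome 1, where the median log2 fold change was 0.50.

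Among ventral neural tube and Hedgehog genes, where Olig2, Nkx2-2 and Pax6 stand, 5 of 24 rose and 13 fell (20.8% and 54.2%). The ligand Shh had at most 3 counts in any library. The Hedgehog receptor Ptch1, itself a target of the pathway, fell by 0.19 on the log2 scale (SE 0.0340), while the effectors Gli1 and Gli2 rose by 0.64 and 1.12. Gli2 is encoded on chromosome 1, and the median over that chromosome was 0.50. Of the factors that share Olig2's domain or border it, Pax6 and Nkx2-2 were lower, as given above, and so was Nkx2-9, which fell by 1.67 on the log2 scale (SE 0.186, adjusted p = 4.54e-11 by edgeR). Nkx6-1 had at most 2 counts in any library, and Irx3 had a log2 fold change of -0.26 that did not pass (adjusted p = 0.332 by edgeR). Nkx6-2, at -0.30, did not pass either (0.0591 by edgeR), but did so with total counts (0.0293) and without control library 3 (0.0412) or library 3 labelled knockout (0.0174).

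Motor neurons and oligodendrocytes are the cell types that arise from Olig2-expressing progenitors. None of the 8 motor neuron genes tested rose and 3 fell (37.5%, near the 35.2% of all genes). Only 3 of the 8 averaged 20 counts or more, and 4 further genes of the list were too low to be tested. Mnx1, the motor neuron homeodomain factor, had 8, 4 and 6 counts in the controls and 5, 10 and 5 in the libraries labelled knockout (log2 fold change 0.22, adjusted p = 0.714 by edgeR). Isl1 fell from 12, 8 and 14 counts to 3, 5 and 2 (-1.66, SE 0.512, adjusted p = 0.0039 by edgeR). In the oligodendrocyte list, which holds Olig1, Olig2, Sox10 and Nkx2-2, 6 of 20 rose and 8 fell. These shares were 30.0% and 40.0%, beside 34.4% and 35.2% of all genes. Olig1 and Olig2 are among the 6 and were chosen for their values, so nothing is read from the upward share. Pdgfra, the receptor that marks oligodendrocyte precursors, had 30, 46 and 24 counts in the controls and 26, 30 and 36 in the libraries labelled knockout. Its groups overlapped (log2 fold change -0.05, SE 0.224, adjusted p = 0.862 by edgeR). Cspg4, of the same list, fell from 44, 43 and 47 counts to 22, 29 and 21 (-0.82, SE 0.210, adjusted p = 0.000588 by edgeR).

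Mobp was the gene of that list that came closest to the Olig pair. This myelin protein gene on chromosome 9 had 42, 36 and 37 counts in the controls and 472, 426 and 447 in the libraries labelled knockout, with no overlap. It rose 12.3-fold (log2 fold change 3.62, SE 0.106, adjusted p = 9.5e-33 by edgeR), to 5.19 cpm per kb, between Olig2 and Olig1. Myrf, a transcription factor that activates myelin genes, fell from 3701, 3498 and 3517 counts to 2029, 1905 and 2168 (-0.74, SE 0.0296).

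Of the radial glia and progenitor genes, the list of Nes and Pax6, 6 of 18 rose and 10 fell (33.3% and 55.6%). Vim, which encodes the filament protein vimentin that assembles with nestin, rose 2.1-fold, from 121 ± 0.739 to 254 ± 8.23 cpm (SD, n = 3 in each group; log2 fold change 1.07, SE 0.0273), opposite to Nes. Prom1 and Hopx fell by 1.69 and 1.83 on the log2 scale. Tnc, an extracellular matrix gene of radial glia, fell from 55, 48 and 42 counts to 7, 3 and 5 (-3.17, SE 0.301, adjusted p = 3.82e-13 by edgeR).

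**Figure D4:**
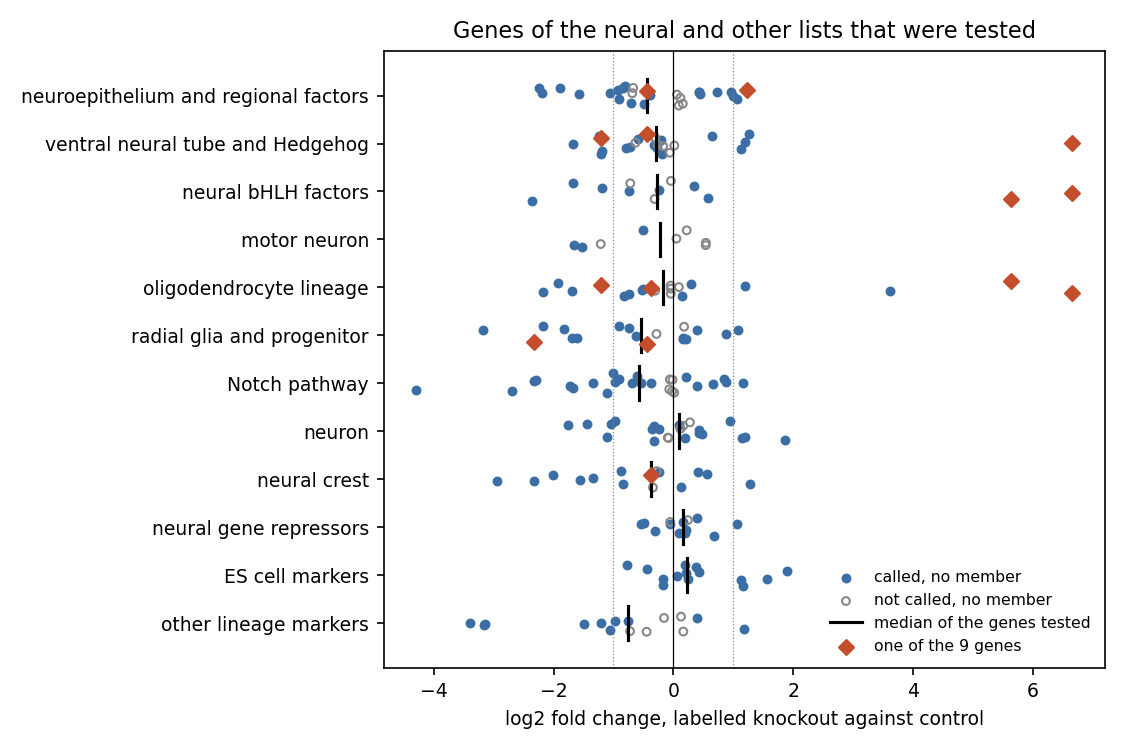
Log2 fold changes (labelled knockout against control) of the tested genes of each list, with a line at the list median, filled points for genes past the test and red diamonds for the 9 genes of interest. In the neural lists, Olig1, Olig2 and Mobp stand apart on the right, past 3.6, while most medians lie slightly below 0.

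Hes5 is switched on by Notch signalling, and of the 26 genes tested from that pathway, 6 rose and 15 fell (23.1% and 57.7%). All 5 ligands fell, among them Dll1 from 125, 96 and 129 counts to 14, 15 and 22 (log2 fold change -2.70, SE 0.183, adjusted p = 3.49e-18 by edgeR). Of the receptors, Notch1 and Notch3 fell (-0.90 and -0.97), Notch4 rose (0.84) and Notch2 did not pass. The effectors of the Hes family went in several directions, as Hes5 stayed at single counts, Hes1 rose from 11.5 ± 1.02 to 21.1 ± 0.603 cpm (0.88, SE 0.0625), and Hes3 fell from 58, 61 and 66 counts to 2, 0 and 1. Hes3 was therefore at least 19.6-fold lower in the libraries labelled knockout.

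**Figure D5:**
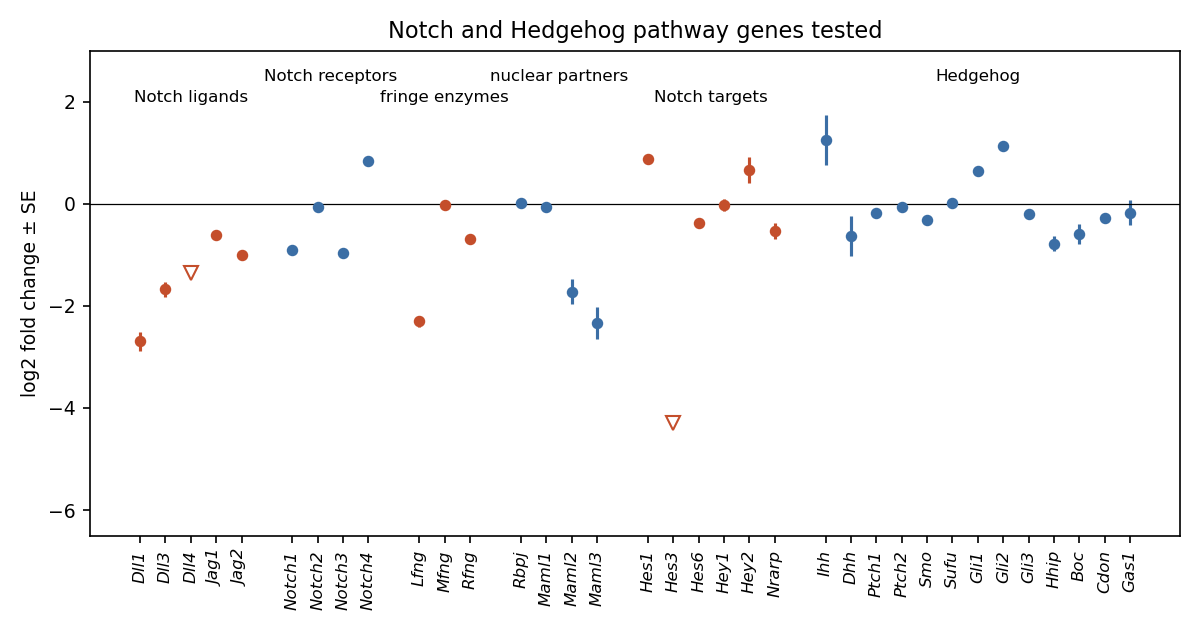
Log2 fold change (labelled knockout against control) with its SE for the tested genes of the Notch pathway by role and of the Hedgehog pathway. All 5 Notch ligands lie below 0, Hes1 and Hes3 lie on opposite sides of 0, and open triangles are bounds for genes at the floor in a group.

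Other proneural bHLH genes gave no counterpart to the Olig pair. Of 12 genes tested in the bHLH list, which holds the pair, 4 rose and 5 fell (33.3% and 41.7%). Olig1 and Olig2 are among the 4 and were chosen for their values, so nothing is read from the upward share. No other gene tested in that list was at least 2-fold higher. Neurod1 fell from 184, 185 and 211 counts to 46, 56 and 71 (log2 fold change -1.67, SE 0.122). Rest, the repressor of neuronal genes outside the nervous system, fell by 0.48 on the log2 scale (SE 0.0249).

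Markers of other cell types in the culture moved as well. Of 15 markers of other lineages tested, 2 rose and 8 fell (13.3% and 53.3%). The summed level of these markers was 78.0 to 81.8 cpm in the controls and 23.9 to 26.6 cpm in the libraries labelled knockout. Col1a1, of mesenchymal cells, had the largest fall of them (-3.39, SE 0.0707). Of the 14 ES cell markers, 10 rose and 4 fell (71.4% and 28.6%, against 34.4% and 35.2% of all genes). At least 2-fold changes were seen upward in 4 (28.6%, against 5.21% of all genes) and downward in 0 (against 11.8%). Klf4, Tfcp2l1, Esrrb and Nanog rose by 1.90, 1.56, 1.16 and 1.13 on the log2 scale, and Pou5f1 by 0.20. Zfp42, at 809 ± 5.45 cpm in the controls, fell by 0.77. The part of such cells in the values of Nes, Pax6 or the Olig pair was not tested.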

How the data were processed

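The deposited values were fragment counts per gene for 6 libraries, not normalized. Per the labels and the study's methods, the authors mapped fragments left after removal of rRNA reads to mm10 with TopHat2 2.0.10 and Bowtie2 2.1.0, and counted GENCODE M4 genes by strand with HTSeq 0.6.1, discarding fragments that fit several genes or places. Symbols, positions and lengths were taken from GENCODE M21 (42425 of 43309 genes matched). No deposited column was without a sample.

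The 16823 genes that reached 10 counts in some library were tested in R 4.3.3 with edgeR 4.0.16 (TMM, quasi-likelihood F test, no covariate, Benjamini-Hochberg, adjusted p at most 0.05). Which edgeR test the study used was not given in the sources used here. The procedure was tested on simulated data. The prior count for fold changes was 0.125, and a level of at most 3 counts in each library of a group was taken as a floor. Library totals were 25042261 to 28838924 counts. No molecular identifiers were used, so bounds and floors cover counting error only.

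The members, the lists and the tests were chosen with earlier results of these data known. Named genes were the members, Zbtb24, up to 5 called genes per list with the largest change (mean of at least 20 counts), a set of neural and ES cell genes named regardless of value, the protein-coding genes within 500 kb of Olig2 and the 5 nearest profiles of Olig1 and Olig2. Notch ligands and receptors, Gm15966 and Gm37016 were named after their values were seen. Alternatives were other size factors, total counts, filters, DESeq2 1.42.0, edgeR's exact test, a replicate block, a prior count of 2 and leaving out each library.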

Additional observations from a re-analysis of the deposited data

How the results depend on the processing

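Of the members, 3 were higher under every alternative run, and 3 or 2 were lower. The count of 2 came from the filter of at least 1 cpm in 3 libraries, which leaves Nkx2-2 and Sox10 out, and from DESeq2 and the removal of control library 1 or 2 or of library 2 or 3 labelled knockout, where Nkx2-2 did not pass. With the filter of at least 1 cpm in 3 libraries, 9 neural list genes were at least 2-fold higher in place of 14, and 23 were at least 2-fold lower in place of 39, as fewer low genes were tested. Leaving out 1 library gave 43 to 48 neural list genes higher and 75 to 79 lower. The fitted log2 fold change of Olig2 was 7.39, or 6.35 with a prior count of 2, and 7.13 to 7.54 with 1 library left out. Of 1219 recalculations over 94 named genes, 1195 stayed on their side of the threshold, 13 lost the call and 11 gained it. No called gene among them changed direction, but Pdgfra (-0.23 to 0.26) and Il10rb (-0.34 to 0.07), neither called, changed sign with 1 library left out. With total counts in place of TMM, the median of all genes was -0.05. Library numbers are shared by the groups but nothing pairs them, and deviations of same-numbered libraries correlated at 0.0136, 0.0744 and 0.0151. The replicate block gave 3 members higher and 3 lower, and 11801 genes called in place of 11697. Below about 10 counts per library, as in Hes5, Fabp7, Sox10 and Nkx2-2, the depth limits what can be seen.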

Other observations

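The neural crest list, of which Sox10 is a member, had 4 of 15 genes higher and 8 lower (26.7% and 53.3%, against 34.4% and 35.2% of all genes). Msx1 fell from 67, 78 and 93 counts in the controls to 10, 7 and 12 in the libraries labelled knockout (log2 fold change -2.95, SE 0.230, adjusted p = 4.91e-16 by edgeR). Snai1, a regulator of cell migration out of epithelia, and Ets1 fell by 2.33 and 2.00 on the log2 scale, with groups that did not overlap. Mitf, the factor of pigment cells and a target of Sox10, rose from 246, 224 and 263 counts to 554, 516 and 614 (1.27, SE 0.0649), whereas Sox10 itself had a log2 fold change of -0.37 that did not pass.

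Genes of differentiated neurons were divided, with 9 of 23 higher and 9 lower (39.1% each, near the 34.4% and 35.2% of all genes). Mapt, which encodes the microtubule protein tau, rose from 370, 339 and 391 counts to 1291, 1218 and 1297 (1.86, SE 0.0517), and the adhesion gene Ncam1 rose by 1.19. Tubb3, a tubulin used as an early neuronal marker, rose by 0.42 from a high level in both groups (176 ± 3.40 and 236 ± 3.91 cpm, SD, n = 3). Nefm and Syp, of neurofilaments and synaptic vesicles, fell by 1.76 and 1.45. Of the 13 genes of repressors of neuronal genes, 7 rose and 4 fell (53.8% and 30.8%), with Rcor2 at 0.68 and Rest at -0.48.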
